A study of Mus musculus with 6 samples.

Results

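The cytosolic heat shock proteins are described here in MIN6 cells, a mouse insulinoma line used as a model of the pancreatic β-cell, after chronic epinephrine exposure. The members are 10 genes of the 22298 in the deposited expression table, picked by their symbols: the stress-inducible HSP70 genes Hspa1a and Hspa1b, the constitutive HSP70 gene Hspa8, the HSP110 gene Hsph1, the J-domain genes Dnajb1 and Dnaja1, the small heat shock gene Hspb1, the HSP90 genes Hsp90aa1 and Hsp90ab1, and Hsf1, which encodes heat shock factor 1. The set was chosen with the epinephrine result of these same samples in view. For that reason the members' fold changes and false discovery rates (FDR, the Benjamini-Hochberg adjusted p of the edgeR quasi-likelihood test over all tested genes) are given as descriptions of this experiment and not as independent tests. RNA was sequenced from 3 control samples and 3 chronic epinephrine samples of MIN6, labelled 1 to 3 in each group. The study used 100 nM epinephrine, given for 3 days and followed by 2 days without it, and does not state when in this course the cells were harvested for sequencing. MIN6 is 1 tumor-derived line and both groups share it. The study describes its replicates in general as biological and its samples as independent, while neither it nor the labels say for the sequenced samples which culture or passage each came from, so each test measures the spread between these samples.

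Cytosolic HSP70 binds short hydrophobic stretches of unfolded proteins in a cycle driven by ATP. J-domain proteins such as Dnajb1 and Dnaja1 bring the client and start ATP hydrolysis, and HSP110 proteins such as Hsph1 exchange the bound nucleotide and help to pull apart aggregates. HSP90 takes over partly folded clients, many of them kinases and steroid receptors, and small heat shock proteins such as Hspb1 hold unfolded proteins without using ATP. In resting cells HSF1 is held inactive by chaperones. When unfolded protein builds up in the cytosol, HSF1 forms trimers and binds heat shock elements, which are inverted repeats of the pentamer NGAAN, and the genes most closely tied to it include Hspa1a, Hspa1b, Dnajb1, Hsph1 and Hspb1. Unfolded protein in the endoplasmic reticulum (ER) acts through other sensors and raises the ER chaperones instead.

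The 3 members with the highest fold changes were Hspa1a, Hspa1b and Hspb1, and the 250 bases before the RefSeq start of each are shown for that reason. They come from the GRCm38.p6 promoter table of RefSeq and are written 5′ to 3′ on the strand of the gene. Capitals mark the fixed letters of GAANNTTC, an inverted repeat of the heat shock element core. The Hspa1a stretch is chr17:34972157-34972406 (minus strand), that of Hspa1b is chr17:34959239-34959488 (minus strand) and that of Hspb1 is chr5:135887669-135887918 (plus strand).
Hspa1a: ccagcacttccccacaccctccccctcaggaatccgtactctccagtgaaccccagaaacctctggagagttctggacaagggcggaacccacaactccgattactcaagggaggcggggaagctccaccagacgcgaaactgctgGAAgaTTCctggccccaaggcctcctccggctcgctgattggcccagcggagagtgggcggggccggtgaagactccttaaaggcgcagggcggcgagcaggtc
Hspa1b: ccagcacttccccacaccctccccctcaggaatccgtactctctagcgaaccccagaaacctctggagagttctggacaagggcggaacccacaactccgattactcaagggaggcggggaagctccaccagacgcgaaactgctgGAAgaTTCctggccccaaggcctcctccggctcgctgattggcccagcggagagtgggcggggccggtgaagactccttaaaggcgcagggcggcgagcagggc
Hspb1: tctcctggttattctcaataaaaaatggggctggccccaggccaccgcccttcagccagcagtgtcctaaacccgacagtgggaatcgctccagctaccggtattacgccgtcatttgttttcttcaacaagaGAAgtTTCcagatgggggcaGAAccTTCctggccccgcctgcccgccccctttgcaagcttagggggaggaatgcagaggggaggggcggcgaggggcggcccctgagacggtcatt

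The Hspa1a and Hspa1b stretches were identical at 247 of 250 positions (98.8%), with a longest identical run of 201 bases. Both held GAAGATTC with its first base 104 bases before the start. Hspb1 held the motif at 2 places, GAAGTTTC at 117 bases and GAACCTTC at 97 bases before the start. Of the other members, the promoter table held Hsph1, Dnajb1 and Dnaja1, so that 6 of the 10 members were matched, and it had no entry for Hspa8, Hsp90aa1, Hsp90ab1 and Hsf1. Hsph1 held the other inverted repeat, TTCNNGAA, as TTCTCGAA, at 33 bases before 1 of its 2 listed starts and 54 bases before the other. Dnaja1 held GAAAATTC at 124 bases before 1 of its 3 starts, and neither arrangement was found in the windows of Dnajb1. Both motifs read the same on the 2 strands, so each search covered both. Of all 32851 windows of this length in the table, 6.69% held GAANNTTC, 7.17% held TTCNNGAA and 12.8% held either. A match is a run of letters and not a measured binding site.

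The libraries held 15017065 to 18127171 assigned reads, and gene counts were scaled with TMM factors to CPM, a gene's count relative to the library's total. Control 1 stood apart, with a correlation of 0.978 to the other controls where those 2 reached 0.993 with each other and the epinephrine samples 0.992 to 0.993. Its score on the first principal component was -38.9, where controls 2 and 3 scored -2.37 and -0.52 and chronic epinephrine 12.5 to 15.9. Each member is therefore given with and without control 1. β-cell markers were plain, with a mean of 31994 CPM for Ins2 and 2878 CPM for Ins1 in the controls, while RNA of other cell types differed between groups as given further on. All 10 members were among the 12747 genes that passed the filter on low counts.

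Chronic epinephrine samples had about 2.5 times the control RNA of both stress-inducible HSP70 genes, while the abundant HSP70 and HSP90 genes, the HSP110 gene, the J-domain genes and Hsf1 itself differed from the controls by at most 1.21-fold. Hspa1a and Hspa1b passed an FDR of 0.05, both in the direction of epinephrine, and both exceeded a 2-fold change. Across all genes 2.02% passed in that direction, 0.612% in the other, 2.63% in either, and 0.722% passed with at least a 2-fold change. Since the members were selected on this contrast, nothing is read from their count against these shares. The median log2 fold change of the 10 members was 0.13, with 8 above 0 and 2 below, against -0.0023 over all genes tested. In 5 members all epinephrine samples lay above all controls and in 0 members all lay below, where 14.3% and 13% of all tested genes had groups that did not overlap in these directions. Hspb1 counts among the 5 and among the 8 above 0, with 6 to 29 reads per sample. It was tested by way of the epinephrine samples, as described further on. In bulk RNA such as this, a smaller or larger number of cells with a transcript cannot be told apart from less or more of it per cell.

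**Figure D1:**
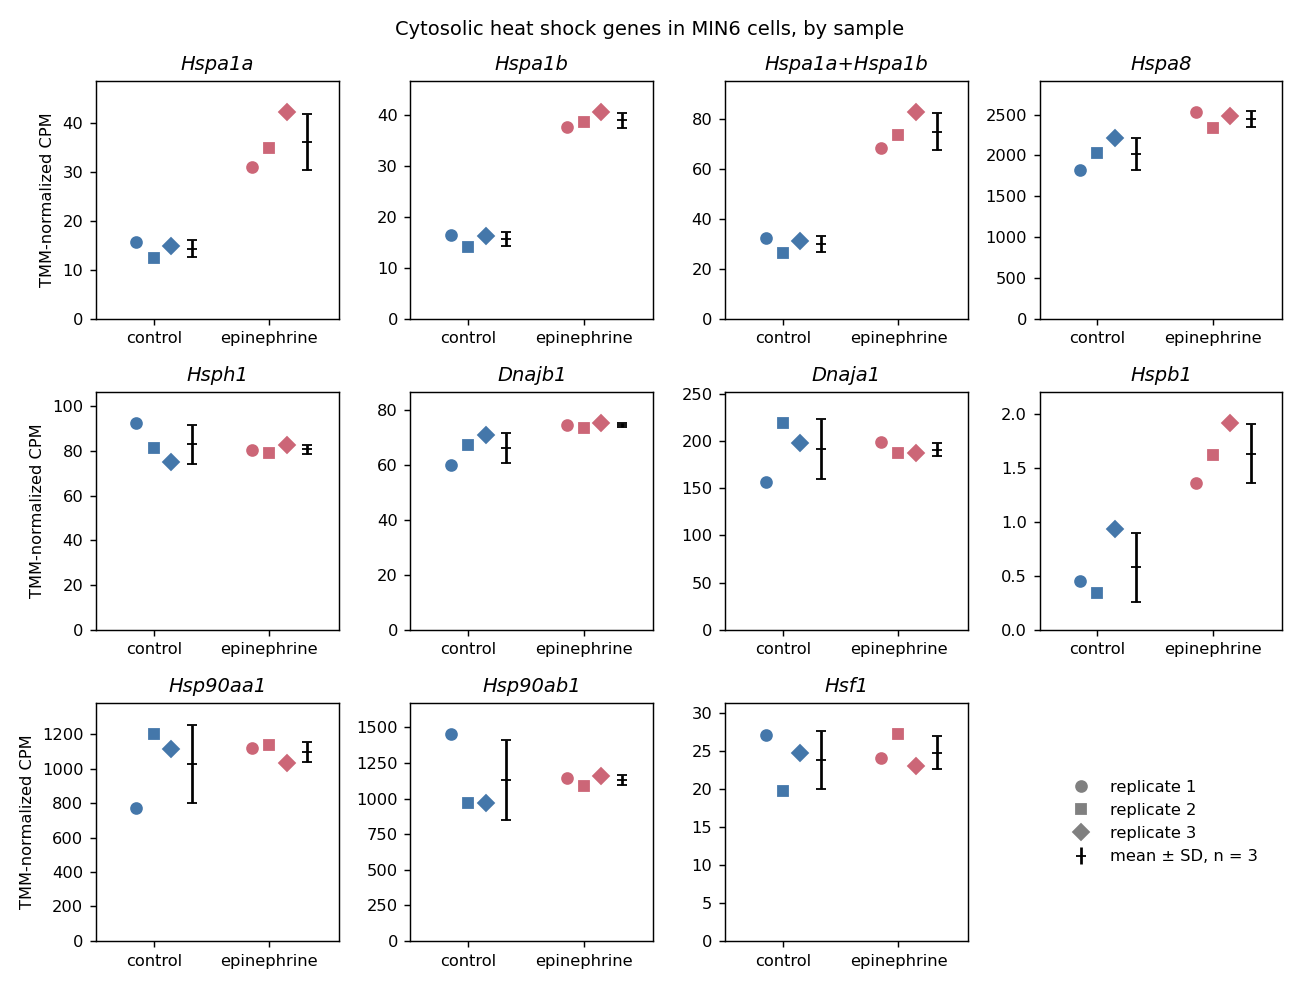
TMM-normalized CPM (y axis, linear from 0) of each member and of Hspa1a and Hspa1b summed in the 3 control and 3 chronic epinephrine samples (marker shape gives the replicate), with the mean ± SD beside each group. For the summed pair the controls lie between 26.4 and 32.2 CPM and the epinephrine samples between 68.5 and 82.8 CPM, while Hsp90aa1, Hsp90ab1, Dnaja1, Hsph1 and Hsf1 overlap.

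Hspa1a (ENSMUSG00000091971) and Hspa1b (ENSMUSG00000090877) are single-exon genes on the minus strand of chromosome 17 (GRCm38), at 34969190 to 34972156 and 34956436 to 34959238. The coordinates of their near ends differ by 9952. Their protein is the HSP70 that cells make in quantity under proteotoxic stress. Hspa1a measured 15.7, 12.3 and 14.8 CPM in controls 1 to 3 and 30.9, 34.9 and 42.2 CPM in epinephrine samples 1 to 3. The lowest epinephrine sample was thus near 2 times the highest control. The means were 14.3 ± 1.78 and 36.0 ± 5.73 CPM (SD, n = 3), a 2.52-fold difference, with a log2 fold change of 1.34 (SE 0.15, 95% interval 1.00 to 1.67, edgeR FDR 0.00384) and 1.41 without control 1. Hspa1b measured 16.4, 14.1 and 16.3 CPM in the controls and 37.6, 38.7 and 40.6 CPM in the epinephrine samples. Here too the groups were wide apart, and the epinephrine samples were closer to each other than for Hspa1a. The means were 15.6 ± 1.35 and 39.0 ± 1.51 CPM (SD, n = 3), a 2.50-fold difference and a log2 fold change of 1.32 (SE 0.10, 95% interval 1.09 to 1.55, edgeR FDR 0.000886), and 1.36 without control 1.

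Reads of these genes are hard to divide. Of all 50-base windows of their transcripts, 58.8% of those of Hspa1a also occur in Hspa1b and 62.3% of those of Hspa1b in Hspa1a. The windows shared by the pair make up 82.4% of the coding part in Hspa1a and 82.3% in Hspa1b, and 57.7% of the windows at the 5′ end in both, whereas the 3′ UTRs share 0 of 764 and 0 of 597. The authors' counts were fractional here, for example 243.44 reads for Hspa1a in control 1, and Hspa1b took 49 to 54.9% of the pair's reads in each sample. A further 564 of the 2967 exonic bases of Hspa1a are overlapped by Gm20481 on the opposite strand. The sum of the pair does not depend on how reads were split between them. It was 32.2, 26.4 and 31.1 CPM in the controls and 68.5, 73.6 and 82.8 CPM in the epinephrine samples. Every epinephrine sample was above 2 times each control. The means were 29.9 ± 3.09 and 74.9 ± 7.24 CPM (SD, n = 3), a 2.51-fold difference, with a log2 fold change of 1.33 (SE 0.11, 95% interval 1.07 to 1.58, edgeR FDR 0.00148). Control 1 was the highest of the controls for this sum, and without it the log2 fold change was 1.38 (edgeR FDR 8.31e-13).

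Hspa8 (ENSMUSG00000015656, chromosome 9, 40800984 to 40810087, plus strand) encodes HSC70, the HSP70 that cells carry at a high level without stress and that also uncoats clathrin vesicles. It measured 1825, 2025 and 2211 CPM in the controls and 2532, 2338 and 2479 CPM in the epinephrine samples. All epinephrine samples were above all controls, by a margin smaller than the spread of the controls. The means were 2020 ± 193 and 2450 ± 99.9 CPM (SD, n = 3), a 1.21-fold difference and a log2 fold change of 0.28 (SE 0.10, 95% interval 0.06 to 0.50), which did not pass (edgeR FDR 0.192). Without control 1, the lowest sample, the log2 fold change was 0.21 and the edgeR FDR 0.00303. Of the windows of Hspa8, 34.6% also occur in the pseudogene Gm15459.

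The nucleotide exchange factor and the J-domain genes showed differences of at most 1.13-fold. Dnajb1 (ENSMUSG00000005483, chromosome 8, 83608193 to 83612653, plus strand), the HSP40 that works with HSP70 on aggregates, measured 60.0, 67.2 and 70.6 CPM in the controls and 74.5, 73.5 and 75.1 CPM in the epinephrine samples. The groups did not overlap, with a log2 fold change of 0.17 (SE 0.09, 95% interval -0.03 to 0.37, edgeR FDR 0.360), and 0.11 without control 1 (edgeR FDR 0.192). Hsph1 (ENSMUSG00000029657, chromosome 5, 149614287 to 149636376, minus strand) measured 92.5, 81.6 and 75.2 CPM in the controls and 80.6, 79.0 and 82.8 CPM in the epinephrine samples. Control 1 was the highest and control 3 the lowest, with the epinephrine samples between them. The log2 fold change was -0.04 (SE 0.10, 95% interval -0.26 to 0.18, edgeR FDR 0.865) and turned to 0.04 without control 1. Dnaja1 (ENSMUSG00000028410, chromosome 4, 40722150 to 40737149, plus strand), a farnesylated HSP40, measured 156, 219 and 198 CPM in the controls and 199, 187 and 187 CPM in the epinephrine samples. Control 1 was again at the edge, here the lowest. The log2 fold change was -0.0009 (SE 0.12, 95% interval -0.28 to 0.28, edgeR FDR 0.998) with all samples and -0.13 without control 1.

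Hspb1 (ENSMUSG00000004951, chromosome 5, 135887919 to 135889563, plus strand), which encodes the small heat shock protein known in the mouse as HSP25, had the highest fitted fold change of the members on the fewest reads. Its counts were 7, 6 and 15 in the controls and 23, 29 and 29 in the epinephrine samples, or 0.453, 0.343 and 0.939 CPM and 1.36, 1.63 and 1.92 CPM. Control 3 was above the other controls and below every epinephrine sample. The means were 0.578 ± 0.317 and 1.64 ± 0.277 CPM (SD, n = 3), a 2.83-fold difference, with a log2 fold change of 1.49 (SE 0.38, 95% interval 0.63 to 2.36), and it did not pass (edgeR FDR 0.0848). Without control 1 the log2 fold change was 1.36 with an edgeR FDR of 0.0237. By limma on log2(FPKM + 1) it was smaller, at 0.78, with a limma FDR of 0.0471. On log2(FPKM + 0.1) it was 1.43 and did not pass (limma FDR 0.065). Hspb1 passed in only 2 of the 14 alternatives in which it was tested, with an FDR of up to 0.335. The cutoff of the low-count filter, 0.606 CPM, was reached by all 3 epinephrine samples and by only 1 control, so the gene was tested by way of the group in which it was higher. Of its windows, 48.8% also occur in the pseudogene Hsp25-ps1.

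The HSP90 genes had opposite deviations in control 1. Hsp90aa1 (ENSMUSG00000021270, chromosome 12, 110690605 to 110702728, minus strand), the inducible HSP90α, measured 771, 1199 and 1114 CPM in the controls and 1119, 1137 and 1030 CPM in the epinephrine samples. Hsp90ab1 (ENSMUSG00000023944, chromosome 17, 45567775 to 45573271, minus strand), the constitutive HSP90β, measured 1452, 971 and 967 CPM in the controls and 1146, 1091 and 1159 CPM in the epinephrine samples. Control 1 was thus the lowest of all samples for Hsp90aa1 and the highest for Hsp90ab1. The log2 fold change of Hsp90aa1 was 0.09 (SE 0.16, 95% interval -0.26 to 0.45, edgeR FDR 0.808) and -0.08 without control 1 (edgeR FDR 0.302). That of Hsp90ab1 was 0.0026 (SE 0.16, 95% interval -0.35 to 0.36, edgeR FDR 0.995) and 0.22 without control 1, where it passed (edgeR FDR 0.000929). The ratio of Hsp90aa1 to Hsp90ab1 in FPKM, fragments scaled by transcript length and library size, was 0.447 in control 1, 1.04 and 0.969 in controls 2 and 3, and 0.826, 0.875 and 0.751 in the epinephrine samples. Their summed FPKM varied less, from 753.9 to 862.4 in the controls and from 798.7 to 825.6 in the epinephrine samples. Of the windows of Hsp90aa1, 41.8% also occur in the pseudogene Gm12346.

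Hsf1 (ENSMUSG00000022556, chromosome 15, 76477422 to 76501913, plus strand) measured 27.1, 19.7 and 24.7 CPM in the controls and 24.1, 27.2 and 23.0 CPM in the epinephrine samples. The groups overlapped, with means of 23.8 ± 3.80 and 24.8 ± 2.16 CPM (SD, n = 3) and a log2 fold change of 0.06 (SE 0.14, 95% interval -0.25 to 0.37, edgeR FDR 0.859). Without control 1, here the highest of the controls, it was 0.17 (edgeR FDR 0.255). HSF1 is switched on by trimer formation and phosphorylation, neither of which RNA levels measure.

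Leaving out control 1 brought the number of members that passed from 2 to 5, all of them higher with epinephrine, namely Hspa1a, Hspa1b, Hspa8, Hspb1 and Hsp90ab1, of which 3 had at least a 2-fold change. The share of all genes that passed rose with it, from 2.63% to 21.6% in either direction. Hspb1 counts among the 5 and the 3 on only 6 to 29 reads per sample. Hspa1a and Hspa1b passed whichever of the 6 samples was left out, with log2 fold changes of 1.21 to 1.43 for Hspa1a and 1.24 to 1.36 for Hspa1b.

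**Figure D2:**
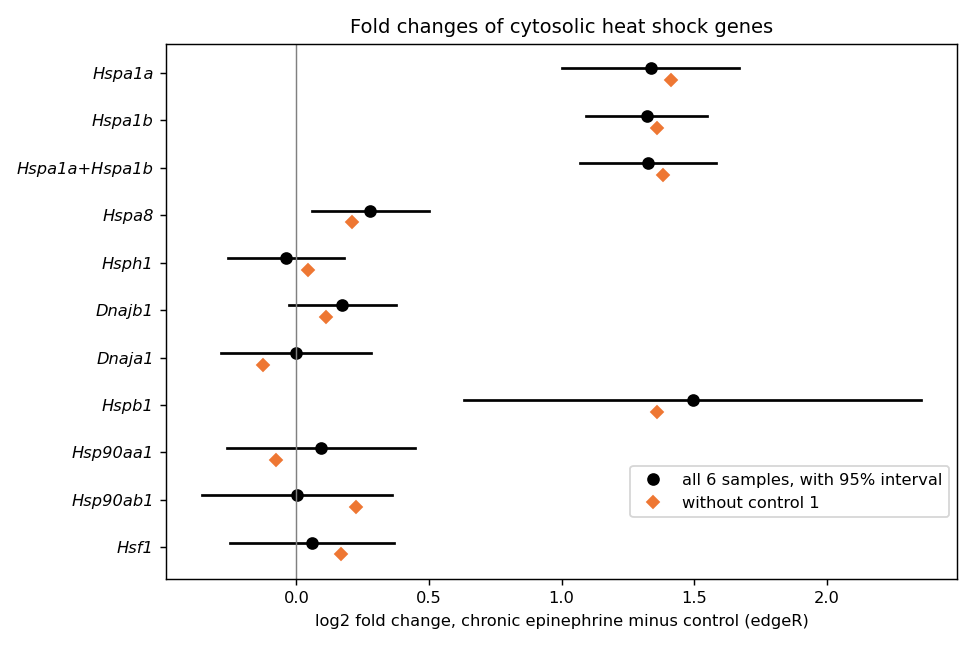
Log2 fold change, chronic epinephrine minus control, from edgeR (x axis) for each member and the summed pair. Black points with lines give the estimate over all 6 samples and its 95% interval, and orange diamonds the estimate without control 1. Hspa1a, Hspa1b and Hspb1 lie above 1 in both, and Hsph1 and Hsp90aa1 change sign without control 1.

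**Figure D3:**
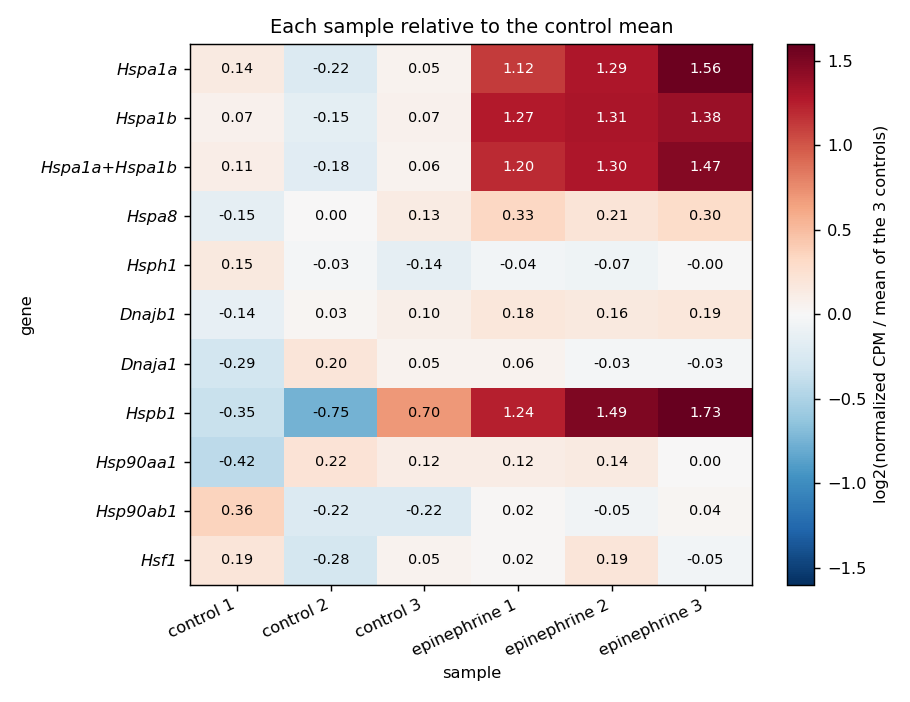
Log2 of each sample's normalized CPM over the mean of the 3 controls, for each member (rows) and sample (columns), printed in each cell and colored from blue (lower) to red (higher). Control 1 deviates by -0.42 for Hsp90aa1 and 0.36 for Hsp90ab1, and the epinephrine samples reach 1.20 to 1.47 for the summed Hspa1 pair.

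The members differed in level far more than between groups. Per transcript length, Hspa8 was highest in the controls at 851 FPKM, followed by Hsp90ab1 at 455, Hsp90aa1 at 347, Dnaja1 at 103, Hsph1 at 23.8, Dnajb1 at 22.2, Hsf1 at 12.0, Hspa1b at 5.62, Hspa1a at 4.86 and Hspb1 at 0.643 FPKM. Among neighbours in this order, the control samples overlapped between Hsp90ab1 and Hsp90aa1, between Hsph1 and Dnajb1, and between Hspa1b and Hspa1a, and did not overlap between the others. In the epinephrine samples Hspa1a at 12.0 FPKM overlapped Hsf1 at 12.0 FPKM, while Hspa8 stood at 1015 FPKM. Hspa1b at 13.8 FPKM was somewhat above Hsf1 there, without overlap. The FPKM of Hspa8 was 68.2, 92.3 and 85.7 times that of the summed Hspa1 pair in the controls and 44.4, 38.3 and 36.1 times in the epinephrine samples, so the inducible pair remained far below Hspa8 in both groups. The 10 members together made up 1808, 1821 and 1848 FPKM in the controls and 2070, 1948 and 2017 FPKM in the epinephrine samples. Hspa8 alone was 43.4 to 49.8% of this sum in the controls and 49.4 to 50.9% in the epinephrine samples. FPKM of the HSP70 pair carries the same uncertainty of shared reads as its counts.

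**Figure D4:**
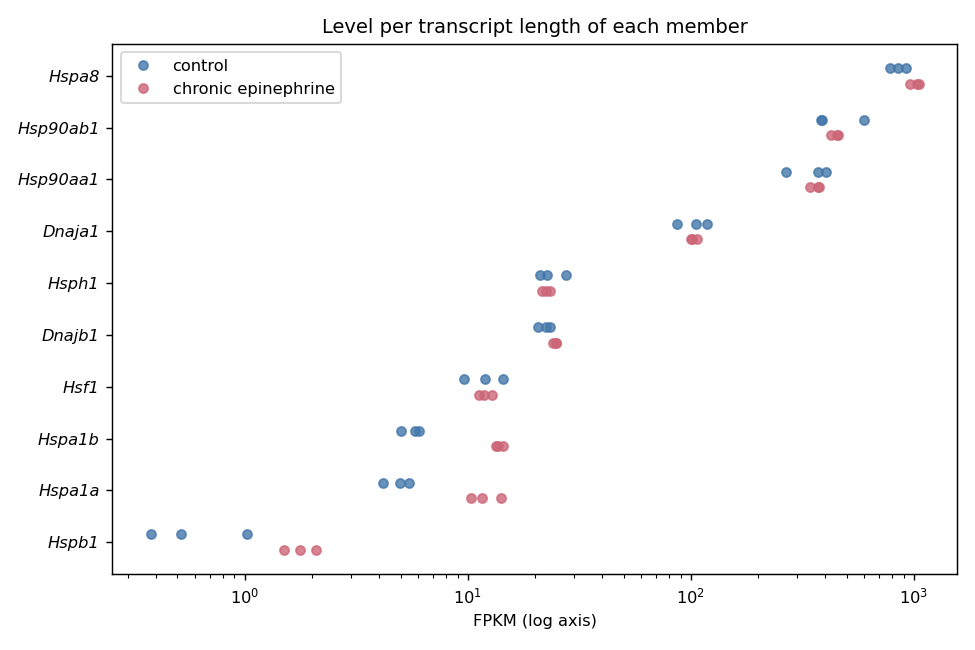
FPKM of each member (x axis, log scale) in the 3 control samples (blue) and the 3 chronic epinephrine samples (red), 1 point per sample, ordered by level. Hspa8 and the HSP90 genes lie at the top, above Dnaja1. Hspa1b and Hspa1a lie below Hsf1 in the controls, while with epinephrine Hspa1a overlaps Hsf1 and Hspa1b lies somewhat above it.

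The wider chaperone network was described by lists of genes that were no members. The lists also held other HSF1 targets and immediate early genes, not all of which are chaperones. Together they held 107 genes, of which 100 were tested. At an edgeR FDR under 0.05, 15 passed as higher with epinephrine (15%, against 2.02% of all genes) and 0 as lower (against 0.612%). Of these 15, 11 were ER lumen chaperones. The lists were chosen with earlier results of these data known, so nothing is read from their shares against those of all genes. DESeq2 tested 103 of the listed genes and called 20. Without regard to the test, 73 had fold changes above 0, the groups did not overlap in 31 genes that were higher and 6 that were lower (against 14.3% and 13% of all genes), and the median log2 fold change was 0.09. Of the 6 lower genes without overlap, all but the mitochondrial Trap1 were immediate early genes. The HSP70 partners (other HSP70s, J-domain proteins and BAG proteins, 22 of 22 tested) had 0 genes that passed, 2 at an unadjusted p under 0.05 and 1 by DESeq2, with a median of 0.04. The extremes were Bag2, an inhibitor of the ubiquitin ligase CHIP, at 0.48 (edgeR FDR 0.0548), and Hspa1l, the HSP70 gene beside Hspa1a, at -0.43 (edgeR FDR 0.430). Of the HSP90 co-chaperones (16 of 16 tested) 0 passed by edgeR or DESeq2 and 0 had an unadjusted p under 0.05, with a median of 0.05 and a range from Fkbp5 at -0.22 to Ppid at 0.16. The TRiC chaperonin and prefoldin (14 of 14) also had 0 by edgeR, by DESeq2 and at an unadjusted p under 0.05, with a median of 0.12, from Pfdn6 at -0.06 to Pfdn1 at 0.33. Without control 1, 4 HSP70 partners passed as higher and 1 as lower, 1 HSP90 co-chaperone in each direction, and 1 gene of the TRiC and prefoldin list as lower. In that fit 21.6% of all genes passed in either direction.

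The remaining small heat shock proteins (3 of 8 tested) and heat shock factors with their binding protein (3 of 4) had 0 genes that passed by edgeR, by DESeq2 or at an unadjusted p under 0.05. Their medians were 0.01 and -0.02. Hspb6 was at 0.23 and Hspb11 at -0.13, Hsbp1 at 0.05 and Hsf4 at -0.07. Of the immediate early genes (9 of 9), induced quickly by many stimuli including handling, 0 passed by edgeR or DESeq2 and 4 had an unadjusted p under 0.05, with a median of -0.20, from Egr1 at -0.30 (edgeR FDR 0.248) to Fosb at 0.13. Without control 1, 3 immediate early genes passed as lower, 1 small heat shock gene passed in each direction, and 0 heat shock factors passed. Of all genes 21.6% passed in either direction in that fit.

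Among other genes known as HSF1 targets 17 of 19 were tested and 2 rose at an edgeR FDR under 0.05. An unadjusted edgeR p under 0.05 was reached by 4, and fold changes were above 0 in 11 and below 0 in 6. Zfand2a, a proteasome-linked zinc finger protein induced by arsenite and heat, was 30.1, 31.9 and 34.1 CPM in the controls and 49.8, 46.7 and 53.6 CPM with epinephrine, a log2 fold change of 0.64 (SE 0.09, edgeR FDR 0.0108). Hmox1, the heme oxygenase that oxidative stress also induces through NRF2, was 17.7, 12.7 and 14.5 CPM in the controls and 27.8, 31.1 and 29.4 CPM with epinephrine, a log2 fold change of 0.98 (SE 0.13, edgeR FDR 0.00854). For both, each epinephrine sample was above each control. The remaining 15 did not pass, the median of the 17 was 0.07 and the lowest was Dnaja4 at -0.09. Leaving out control 1 gave 5 genes, in a fit where 21.6% of all genes passed in either direction. Leaving out control 2 gave 1, leaving out control 3 gave 2, and leaving out any epinephrine sample gave 0. There the FDR of Hmox1 was up to 0.0753 and that of Zfand2a up to 0.0877.

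Chaperones of other compartments were listed as well. Of the mitochondrial chaperones and proteases 2 of 11 rose at an edgeR FDR under 0.05, and DESeq2 also called 2. An unadjusted edgeR p under 0.05 was reached by 6, fold changes were above 0 in 9, and the median was 0.19. Hspa9, the mitochondrial HSP70, went from 323 ± 5.85 to 460 ± 10.2 CPM (SD, n = 3; log2 fold change 0.51, SE 0.08, edgeR FDR 0.0114). Lonp1, the matrix protease, went from 110 ± 3.18 to 158 ± 3.44 CPM (SD, n = 3; log2 fold change 0.53, SE 0.08, edgeR FDR 0.0107). Trap1, the mitochondrial HSP90, was the lowest of the list at -0.22. Without control 1 this list had 5 genes higher and 1 lower, where 21.6% of all genes passed in either direction. Without control 3 it had 2 higher. Without control 2 or any epinephrine sample 0 passed, with the FDR of Hspa9 up to 0.118 and that of Lonp1 up to 0.111.

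Of the ER lumen chaperones 11 of 17 rose at an edgeR FDR under 0.05, where DESeq2 called 15. All 17 had fold changes above 0 and an unadjusted edgeR p under 0.05, and the median was 0.56. The largest was Sdf2l1, a partner of the ER HSP70, at 40.3, 39.8 and 44.7 CPM in the controls and 101.8, 102.4 and 103.6 CPM with epinephrine (log2 fold change 1.30, edgeR FDR 0.0004). The others that rose were the protein disulfide isomerases Pdia6 at 0.94, Pdia4 at 0.56 and Pdia3 at 0.47, the secreted stress factors Creld2 at 0.87 and Manf at 0.73, the J-domain proteins Dnajb9 at 0.68, Dnajb11 at 0.60 and Dnajc3 at 0.41, the ER HSP70 Hspa5 at 0.62, and the ER HSP90 Hsp90b1 at 0.53. The lowest was the lectin chaperone Canx at 0.24. The fold change of Hspa5 was thus between those of its cytosolic counterparts Hspa8 at 0.28 and Hspa1b at 1.32. The number that passed was 17 without control 1, a fit in which 21.6% of all genes passed in either direction. It was 4 without control 2, 7 without control 3, and 1, 2 and 2 without epinephrine samples 1, 2 and 3.

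**Figure D5:**
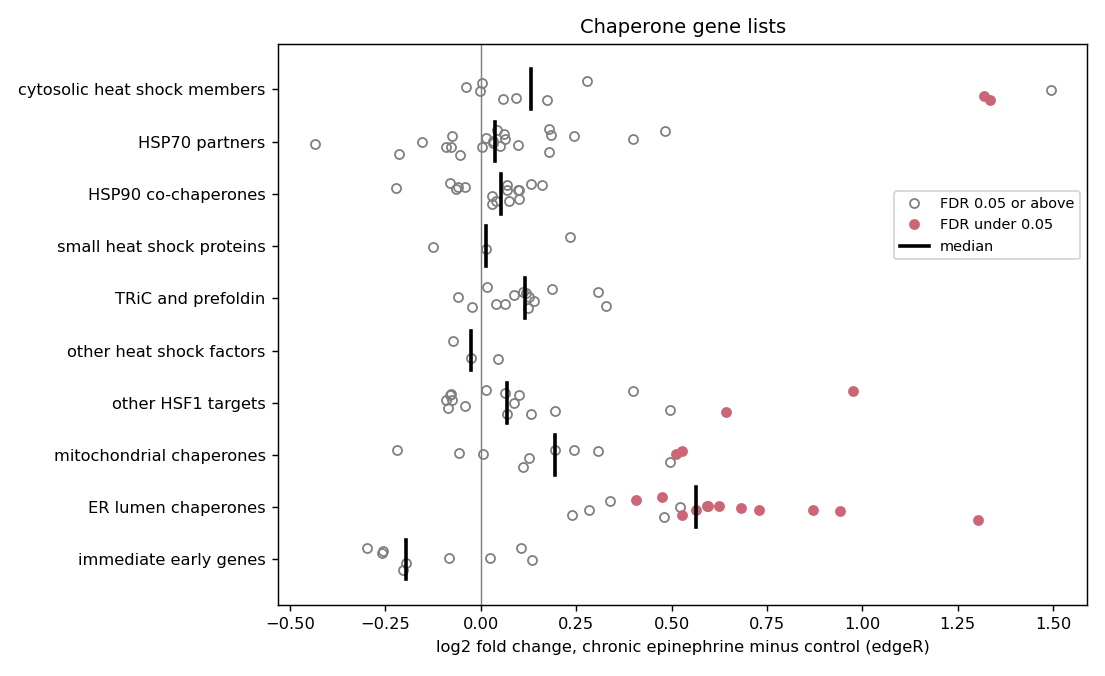
Log2 fold change, chronic epinephrine minus control, from edgeR (x axis) for every tested gene of the cytosolic heat shock members and of each list (rows). Filled points have an FDR under 0.05 and black bars give the medians. The ER lumen list has its median at 0.56 with 11 filled points, and the HSP90 co-chaperone, TRiC and prefoldin, and immediate early lists have none.

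RNA of other cell types was measured beside these results, with summed FPKM over each marker list. The 11 β-cell markers summed to 75350 to 106700 in the controls and 93740 to 96960 with epinephrine. Of these, 2 passed, both lower, namely Ins1 at -0.50 (edgeR FDR 0.0152) and the glucose transporter gene Slc2a2 at -0.76, while Ins2 was at 0.01. The α- and δ-cell markers (4 of 7 tested) summed to 176.8 to 207.9 in the controls and 366.9 to 394.5 with epinephrine, where Gcg, the glucagon gene, rose by 1.02 (edgeR FDR 0.00199). The leukocyte list (1 of 7 tested) summed to 0.36 to 1.06 FPKM in the controls and 1.77 to 2.91 FPKM with epinephrine, with Cd68 at a log2 fold change of 2.39. Fibroblast markers (3 of 6 tested) summed to 0.43 to 5.2 FPKM in the controls, where control 1 was the highest, and 0.34 to 3.38 FPKM with epinephrine. Hepatocyte markers (2 of 10 tested) summed to 5.27 to 94.34 FPKM in the controls and 4.98 to 5.52 FPKM with epinephrine. Control 1 was the lowest of the controls here, so the 94.34 FPKM was in another control. Of the fibroblast and hepatocyte lists 0 genes passed by edgeR, with 1 gene of each at an unadjusted p under 0.05. Slc2a2, Gcg and Cd68 are named after their values were seen, and the part of these lists in the heat shock result was not tested.

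The genes whose log2 CPM followed the summed Hspa1 pair most closely over the 6 samples, out of 12737 compared, were Gmppb (Pearson r 0.9985), an enzyme that makes the sugar donor GDP-mannose, Sema3e (0.9981), a secreted guidance factor, Wnt5a (0.9979), a secreted WNT ligand, Cckbr (0.9969), the gastrin and cholecystokinin B receptor, and Ttyh1 (0.9961), a membrane protein. Their log2 fold changes were 0.72, 0.70, 0.50, 1.48 and 1.17. The 6 points fall into the 2 groups, so any gene with a wide gap between groups scores high, and 248 genes had an r above 0.95.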

How the data were processed

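RNA of the MIN6 samples was extracted with Trizol and sequenced on an Illumina NovaSeq instrument by a sequencing company for the authors. The deposited table held 1 expected count and 1 FPKM value per gene and sample, with the build GRCm38 named in the submitters' processing notes. The aligner and counter are not given in the sources used here. The expected counts were not whole in 8.34% of values, as arises where reads are shared between genes, and were rounded before testing. Of the 22298 genes, 4887 were at 0 in all samples. Groups came from the sample titles.

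Counts were filtered with filterByExpr, scaled by TMM and tested with edgeR 4.0.16 (quasi-likelihood F test, R 4.3.3, all 6 samples, no covariate), with Benjamini-Hochberg adjustment over all tested genes and a threshold of 0.05. A separate fit replaced Hspa1a and Hspa1b by their sum. The alternatives were DESeq2 1.42.0, limma 3.58.1 on log2(FPKM + 1) and log2(FPKM + 0.1), other scalings and filters, a replicate block and leaving out each sample. CPM values are TMM-normalized, and FPKM values are those the authors deposited. Scripts were tested on simulated data.

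The members and all gene lists (HSP70 partners, HSP90 co-chaperones, small heat shock proteins, TRiC and prefoldin, heat shock factors, HSF1 targets, mitochondrial and ER lumen chaperones, immediate early genes, and cell type markers) were chosen with earlier results of these data known. A further marker list, of the exocrine pancreas, is not reported here. Named are all members, list genes with an FDR under 0.05, the largest rise and fall in each list, and the 5 genes most like the Hspa1 pair by Pearson r. Positions and shared 50-base windows came from the GENCODE annotation of GRCm38, and promoters from RefSeq GRCm38.p6.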

Additional observations from a re-analysis of the deposited data

How the results depend on the processing

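Hspa1a and Hspa1b, alone and summed, kept an FDR under 0.05 in all 15 alternatives. For the sum the log2 fold change ranged from 1.22 to 1.39, with a largest FDR of 0.0237. With the replicate number as a block it was 1.33 (edgeR FDR 0.00902). Neither the labels nor the study say whether equal replicate numbers mark paired samples. Deviations of samples with the same number correlated at 0.0502, 0.0677 and -0.0488, and no sample correlated best with its own number. With 3 samples a group these values cannot settle whether the samples were paired. The block lowered the count of all genes with an FDR under 0.05 from 335 to 178, DESeq2 raised it to 729, and leaving out a sample gave 47 to 2798. Leaving out a sample gave 2 to 5 members (at least 2-fold, 2 to 3) and 1 to 38 genes of the other lists, where all 6 samples gave 15. The sample whose removal gave the most was control 1. The cause of these shifts was not tested.

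Members near 0 changed sign with the processing. Hsp90ab1 was at 0.0026 and went to -0.0060 with DESeq2 size factors, -0.0283 with library size alone, -0.0058 by DESeq2, -0.0022 and -0.0021 by limma with a pseudocount of 1 and 0.1, -0.0015 without a filter and -0.0013 with at least 10 counts in every sample. Dnaja1 was at -0.0009 and went to 0.0028 and 0.0029 by limma and to 0.0119 with the replicate block. Leaving out a sample gave -0.1036 to 0.2239 for Hsp90ab1, -0.1262 to 0.1017 for Dnaja1, -0.1072 to 0.0426 for Hsph1, -0.0785 to 0.2104 for Hsp90aa1 and -0.0709 to 0.1662 for Hsf1, and, among genes of the other lists, -0.0634 to 0.1181 for Hsbp1 and -0.1887 to 0.0782 for Hsf4. Hspb1 could not be tested where at least 10 counts were required in every sample. With 3 samples a group, the intervals of Hsph1, Dnaja1, Dnajb1, Hsp90aa1, Hsp90ab1 and Hsf1 over all samples include 0 and bound a change in either direction.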
